A study of Homo sapiens with 12 samples.

Results

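The p53 pathway was followed here through 33 genes of the table of 35238, chosen by name as direct targets of the transcription factor p53 or as parts of its feedback loop. They were followed gene by gene over the 4 groups of the study, with the effect of the knockdown in vehicle and the contrast of short and long genes set apart. All 33 were found in the table. By role, 6 act in feedback on p53, 6 in growth arrest or cell cycle control, 13 in death signaling, 2 in DNA synthesis and repair, 5 in metabolism and redox control, and 1 is a secreted factor.

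The cells were HK-2, an established human proximal tubule line, grown with 10 nM of a scrambled siRNA (SCR) or of an siRNA against POLR2A (siB), which encodes RPB1, the catalytic subunit of RNA polymerase II. For 24 hours they were kept in the vehicle DMSO or in AAI at 25 µM, which gave the groups SCR DMSO, siB DMSO, SCR AAI and siB AAI with 3 replicates each. AAI, aristolochic acid I, is a nephrotoxin from plants whose activated form binds DNA as bulky adducts. The samples were grouped by their titles, since the treatment label names DMSO for all 12. Every group thus carried an siRNA and DMSO, and no library came from cells without transfection. Knockdown here means siB against SCR. Since siB was the only siRNA against POLR2A, effects of lower POLR2A and other effects of that siRNA cannot be told apart. HK-2 cells were immortalized with the papillomavirus genes E6 and E7, and E6 directs the degradation of p53, which limits the line as a model of the p53 response. The labels do not say whether replicates were separate cultures, so p-values measure the spread between these libraries, which may be technical.

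p53 is a transcription factor that is held low by MDM2 and is stabilized by kinases that sense DNA damage. It then raises genes that stop the cell cycle, repair DNA, tune metabolism or commit the cell to death, together with MDM2 itself, which closes a negative feedback loop. In the proximal tubule, p53 is a known part of the response to toxins that damage DNA.

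p53 binds pairs of 10-base half-sites, and the pairs found are shown because such letters are what p53 is known to bind. RefSeq start-site windows of 300 bases (250 before to 50 after the start, GRCh38.p14) were at hand for 27 of the 33 genes, with up to 4 windows a gene. In them, pairs of the p53 half-site were searched that kept its fixed C and G, stood 0 to 13 bases apart and held at most 2 mismatches in all. The half-site reads the same on both strands, so 1 search covered both. MDM2, FAS, AEN and FDXR held such a pair, and the half-sites are in capitals below.
MDM2, chr12:68808918-68808947, plus strand: gagctGGTCAAGTTCAGACACGTTCcgaaa
FAS, chr10:88991304-88991333, plus strand: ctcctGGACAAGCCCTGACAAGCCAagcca
AEN, chr15:88621301-88621330, plus strand: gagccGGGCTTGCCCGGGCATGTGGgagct
FDXR, chr17:74872996-74873025, minus strand: GGGCGGGCCCgggcaggagcGGGCTTGCCC
The pair near MDM2 lay in an intron of its canonical transcript, and that of FAS in an intron of the canonical transcript which other transcripts count as exon and untranslated region. The AEN pair lay just before the annotated gene, and the FDXR pair before the canonical transcript but in an exon of another. These 4 of 27 genes compare with 989 of 27305 genes that had a window (3.62%), and 5 of the 45 windows searched (11.1%) with 1030 of all 35116 (2.93%). TP53INP1, GADD45A, TNFRSF10B, PHLDA3, RRM2B and CMBL had no window. A match is a description of the letters and not a measured binding site.

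Levels are counts-per-million (CPM), recovered from the deposited log values, and gene positions are those of GENCODE release 44 on hg38. Changes are log2 differences of CPM + 1, each with the standard error (SE) and the adjusted p of limma, corrected over all genes tested by Benjamini-Hochberg, and a gene is said to have risen or fallen at an adjusted p under 0.05. Groups with no overlap were common over all genes. With AAI they numbered 3161 higher and 1641 lower of 14228 in SCR cells, and 5099 and 3976 of 14928 in siB cells. For the knockdown in AAI they were 2252 and 2356 of 14946. Of the 31 p53 pathway genes tested they were 5 and 5, 6 and 12, and 3 and 7 in the same order. Depth ran from 15844015 to 42805294 reads a library. POLR2A was lower in siB cells, at 138, 143 and 139 CPM in siB DMSO against 258, 288 and 306 in SCR DMSO, and at 266, 220.4 and 210.3 in siB AAI against 673, 719 and 729 in SCR AAI. Its change was -1.61 (SE 0.15, adjusted p = 0.000582) in AAI and -1.01 (SE 0.13, adjusted p = 0.505) in DMSO. Of 12 kidney epithelial markers, PAX8, KRT8, KRT18, KRT19, CDH2 and the brush-border enzyme GGT1 were expressed in every library (62.4 to 809 CPM), while PAX2 and the proximal tubule markers ANPEP, AQP1, LRP2, CUBN and SLC34A1 were under 5 CPM in every library. Since the samples are bulk RNA, fewer cells of a kind and less RNA per cell cannot be told apart.

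SCR DMSO replicate 2, the deepest library, stood apart from its group, and the p53 genes showed it. It lay below both other libraries of its group for 15 of the 31 tested genes and above both for 12. Such counts were not particular to it, since siB DMSO replicate 1 lay below both for 11 and above both for 15. Its median distance from the average of its group mates was 0.64 on the log2 scale, beside 0.49 for SCR DMSO replicate 1. Genes more than 1 log2 away numbered 7 in it and 8 in SCR DMSO replicate 1. RRM2B, the p53-induced subunit of ribonucleotide reductase, was at 42.1, 4.04 and 16.4 CPM in the 3 SCR DMSO libraries. In that group MDM2, CCNG1 and RRM2B were lowest in replicate 2 and GDF15 and PHLDA3 highest, so counts against SCR DMSO are also given without replicate 2.

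In SCR cells AAI raised 1 of the 31 genes tested, SERTAD1, and lowered 0, against 8.98% of all genes raised and 3.36% lowered. At an unadjusted p under 0.05 there were 3 up and 5 down, against 17.9% and 9.1% of all genes. The median change was 0.20, with 20 of 31 above 0, beside 0.18 over all genes, of which 61.8% were above 0. Replicate numbers were taken as pairs in this comparison because of correlations seen in these data, not because of a label. With the number as a block 3 genes were raised (SERTAD1, GADD45A and AEN) and 5 lowered (TP53INP1, PLK2, TP53I3, CYFIP2 and RPS27L), against 14.7% and 6.40% of all genes. Without SCR DMSO replicate 2 the counts were 4 and 5, with FDXR raised as well and CCNG1 lowered in place of RPS27L, against 13.5% and 8.70% of all genes. Without that library the raised genes stood at 1.85 (SERTAD1), 1.29 (GADD45A), 1.07 (AEN) and 0.87 (FDXR), and the lowered ones at -1.62 (TP53INP1), -1.28 (CYFIP2), -1.06 (PLK2), -0.94 (TP53I3) and -0.84 (CCNG1), with adjusted p from 0.00186 to 0.0475. Leaving out any other single library left 0 and 0. With median-ratio scaling in place of CPM, 0 of the 31 were raised and 4 lowered, against 7.50% and 5.69% of all genes. SERTAD1 also passed a limit of 2-fold, which 7.73% of genes passed upward and 2.73% downward.

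In siB cells AAI raised 4 genes (MDM4, BTG2, GADD45A and SERTAD1) and lowered 12 of the 31, against 30.4% of all genes raised and 21.8% lowered. The 12 were CCNG1, TP53INP1, PLK2, TP53I3, PHLDA3, DRAM1, TP53I13, CYFIP2, RPS27L, SESN1, CMBL and GDF15, and they include the 5 lowered in SCR cells under the block. At 2-fold or more, 0 were raised and 5 lowered (TP53INP1, PLK2, TP53I3, PHLDA3 and CYFIP2), against 13.9% and 5.79% of all genes. The median change was -0.01, beside 0.10 over all genes. With all 4 groups in 1 fit, 0 were raised and 6 lowered (CMBL, CYFIP2, PHLDA3, PLK2, TP53I3 and TP53INP1), against 20.7% and 13.7% of all genes. The calls of MDM4, BTG2, GADD45A, SERTAD1, CCNG1, DRAM1, TP53I13, RPS27L, SESN1 and GDF15 thus ended in that fit. With median-ratio scaling 2 were raised and 13 lowered, against 26.7% and 27.2% of all genes.

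**Figure D1:**
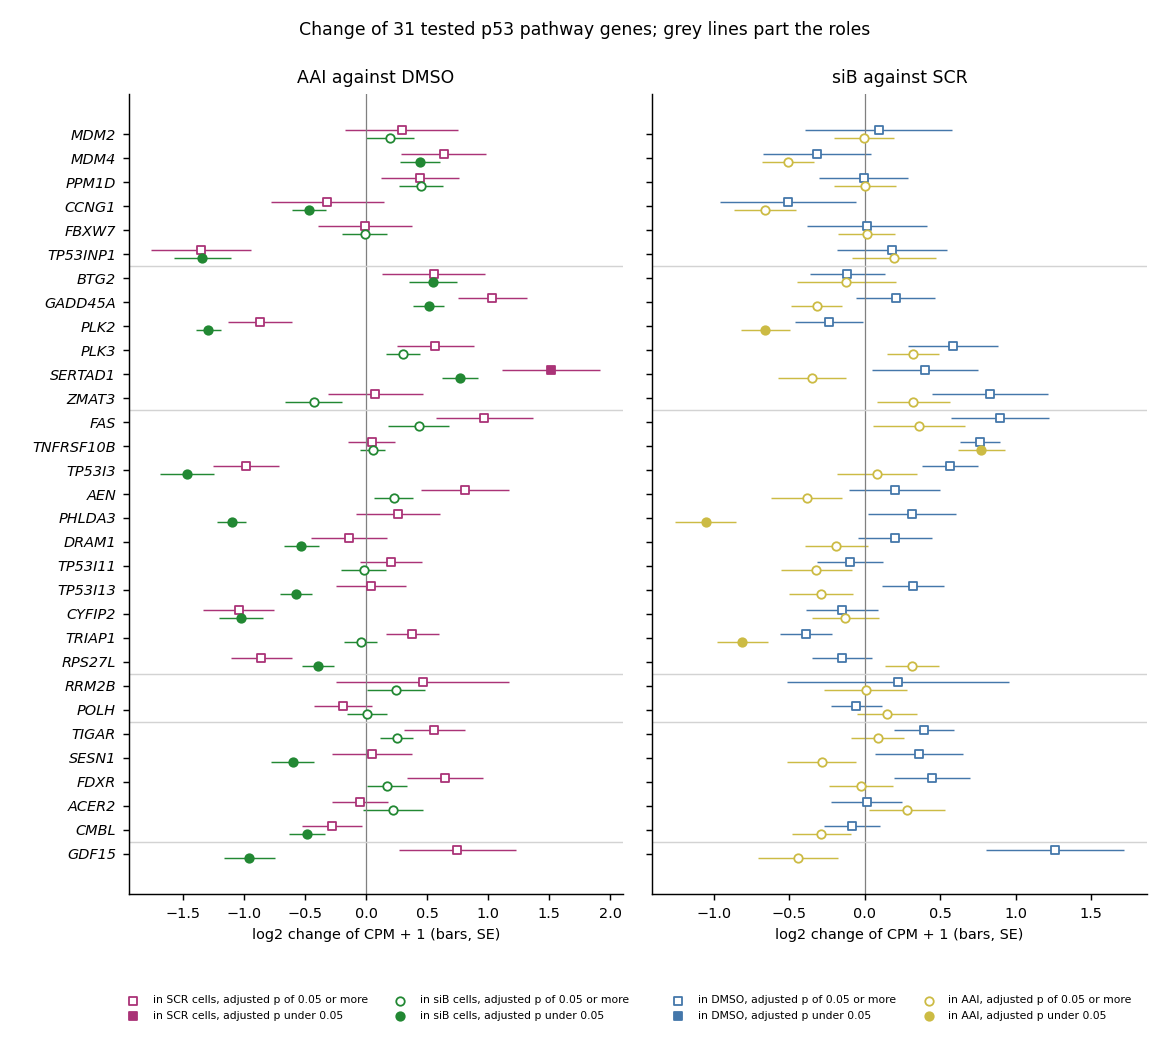
Log2 change of CPM + 1 (x axis, bars SE) of the 31 tested p53 pathway genes (y axis, ordered by role) for AAI against DMSO in SCR and siB cells (left) and for siB against SCR in DMSO and AAI (right). Filled symbols have an adjusted p under 0.05: 1 in SCR cells, 16 in siB cells, 0 in DMSO and 4 in AAI.

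Of the 6 feedback genes, AAI raised MDM4 and lowered CCNG1 and TP53INP1 in siB cells, and none passed in SCR cells without the block. Over all genes AAI raised 30.4% and lowered 21.8% in siB cells, and 8.98% and 3.36% in SCR cells. MDM2 (chromosome 12, 68808177 to 68845544, plus strand), the ubiquitin ligase that marks p53 for degradation and holds a half-site pair, was at 68.3, 18.1 and 53.4 CPM in SCR DMSO, 56.3, 40.5 and 35.6 in siB DMSO, 56.98, 40.2 and 53.9 in SCR AAI and 61.6, 49.6 and 40.2 in siB AAI. All 4 groups overlapped, and SCR DMSO alone spanned the range of the other groups. The change with AAI was 0.29 (SE 0.46, adjusted p = 0.722) in SCR cells and 0.19 (SE 0.20, adjusted p = 0.433) in siB cells. In SCR cells its sign turned without SCR DMSO replicate 2, to -0.27 (SE 0.24, adjusted p = 0.458). The gene named CPM, which overlaps MDM2 on the other strand, ran from 24.6 to 137.6 counts-per-million in SCR DMSO. Its share in the MDM2 counts was not tested.

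MDM4, a partner of MDM2 that masks the activation domain of p53, was at 49.1, 20.7 and 43.8 CPM in SCR DMSO, 35.4, 28.3 and 22.6 in siB DMSO, 45.99, 58.9 and 63.6 in SCR AAI and 38.3, 41.5 and 36.6 in siB AAI. It was higher in every siB AAI library than in every siB DMSO library and rose by 0.44 (SE 0.17, adjusted p = 0.0489), a call that ended when any of 5 of the 6 libraries was left out. In AAI every siB library was below every SCR library, a change of -0.51 (SE 0.17, adjusted p = 0.0835). With the replicate block, whose pairs were taken from the data, MDM4 passed as lowered, though that fit gave each gene's own spread no weight. PPM1D, the phosphatase WIP1 that removes activating phosphates from p53, was at 29.3 ± 11.4 CPM in SCR DMSO, 27.8 ± 2.57 in siB DMSO, 38.5 ± 6.41 in SCR AAI and 38.98 ± 9.03 in siB AAI (SD, n = 3), and passed in none of the comparisons. FBXW7, the substrate receptor of an SCF ubiquitin ligase, had group means of 20.98 to 22.8 CPM and changes between -0.01 and 0.02.

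CCNG1, cyclin G1, was at 102, 28.2 and 71.1 CPM in SCR DMSO, 48.7, 36.7 and 39.1 in siB DMSO, 62.8, 35.3 and 47.2 in SCR AAI and 30.9, 27.7 and 29.8 in siB AAI. In siB cells no AAI library reached the lowest DMSO library, and it fell there by 0.47 on the log2 scale (SE 0.14, adjusted p = 0.0179). That call ended without siB AAI replicate 2 (-0.43) or siB AAI replicate 3 (-0.48). TP53INP1, a nuclear protein that promotes p53 phosphorylation and autophagy, was at 52.5, 19.997 and 23.6 CPM in SCR DMSO, 38.4, 32.8 and 29.4 in siB DMSO, 15.5, 8.79 and 9.28 in SCR AAI and 18.7, 9.05 and 11.5 in siB AAI. Each AAI group lay below its DMSO group with no overlap. The change was -1.34 (SE 0.24, adjusted p = 0.00123) in siB cells and -1.35 (SE 0.41, adjusted p = 0.0703) in SCR cells, where the block gave -1.35 (SE 0.24, adjusted p = 0.00774). NDUFAF6, which overlaps TP53INP1 on the other strand, was at 10.6 to 12.6 CPM in SCR DMSO and 8.98 to 11.7 in siB DMSO. It was at 15.9 to 20.2 CPM in SCR AAI and 17.2 to 21.01 in siB AAI, the opposite direction.

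Of the 6 genes of growth arrest or cell cycle control, AAI raised BTG2, GADD45A and SERTAD1 and lowered PLK2 in siB cells. There AAI raised 30.4% and lowered 21.8% of all genes. In SCR cells SERTAD1, which is not itself an arrest gene, alone passed without the block. GADD45A (chromosome 1, 67685201 to 67688334, plus strand), a stress protein that binds PCNA and CDK1, was at 51.2, 75.7 and 38.4 CPM in SCR DMSO, 66.9, 62.5 and 54.9 in siB DMSO, 101, 99.2 and 131 in SCR AAI and 77.4, 89.8 and 97.1 in siB AAI. Every AAI library exceeded every DMSO library. The rise was 0.51 (SE 0.13, adjusted p = 0.00788) in siB cells, and in SCR cells the change was 1.03 (SE 0.28, adjusted p = 0.0533), 1.03 (SE 0.27, adjusted p = 0.0319) with the block.

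SERTAD1 (chromosome 19, 40421589 to 40425992, minus strand), a co-regulator of E2F-driven transcription that binds CDK4, was at 5.45, 15.4 and 9.23 CPM in SCR DMSO, 11.3, 12.4 and 14.1 in siB DMSO, 38.5, 29.7 and 19.8 in SCR AAI and 21.3, 23.998 and 21.01 in siB AAI. The AAI and DMSO groups did not overlap in either cell state. It rose by 1.51 (SE 0.40, adjusted p = 0.0473) in SCR cells and 0.77 (SE 0.15, adjusted p = 0.00197) in siB cells. In SCR cells the call ended when any library other than SCR DMSO replicate 2 was left out. The difference between the 2 responses was -0.74 (SE 0.44, adjusted p = 0.543).

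PLK2 (chromosome 5, 58453982 to 58460139, minus strand), a polo-like kinase of the stress response, was at 575, 323 and 404 CPM in SCR DMSO, 376, 355 and 343 in siB DMSO, 213, 207 and 276 in SCR AAI and 131, 149 and 157 in siB AAI. The 4 groups were ordered SCR DMSO, siB DMSO, SCR AAI and siB AAI from high to low, and only the first pair overlapped. It fell with AAI in siB cells, at -1.29 (SE 0.10, adjusted p = 1.43e-05). In AAI it was lower in siB than in SCR cells, at -0.66 (SE 0.16, adjusted p = 0.0279), a call that ended without SCR AAI replicate 3 or without any of the 3 siB AAI libraries. The call also ended with all 4 groups in the limma fit (adjusted p = 0.0684) and without a filter (adjusted p = 0.0507). In SCR cells AAI gave -0.87 (SE 0.26, adjusted p = 0.0707), and -0.87 (SE 0.23, adjusted p = 0.0349) with the block.

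BTG2, an antiproliferative protein that binds the mRNA deadenylation complex, was at 14.5, 12.8 and 8.49 CPM in SCR DMSO, 9.36, 11.6 and 11.2 in siB DMSO, 33.5, 11.4 and 14.02 in SCR AAI and 21.4, 13.9 and 13.9 in siB AAI. Replicate 1 was the highest library of both AAI groups. It rose by 0.55 (SE 0.19, adjusted p = 0.0388) in siB cells, and by 0.35 without siB AAI replicate 1. The call ended without that library or without any of the 3 siB DMSO libraries. PLK3, a relative of PLK2, was at 14.6 ± 5.13 CPM in SCR DMSO, 21.5 ± 2.54 in siB DMSO, 21.2 ± 1.05 in SCR AAI and 26.7 ± 2.12 in siB AAI (SD, n = 3). Its groups did not overlap in any of the 4 pairwise comparisons, yet none of them passed. ZMAT3, an RNA-binding zinc finger protein, was at 10.3 ± 5.85 CPM in SCR DMSO, 18.02 ± 5.06 in siB DMSO, 10.2 ± 2.47 in SCR AAI and 13.1 ± 3.58 in siB AAI (SD, n = 3) and passed in none.

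Of the 11 tested death genes, the knockdown raised TNFRSF10B and lowered PHLDA3 and TRIAP1 in AAI, and AAI lowered 6 in siB cells. Over all genes the knockdown raised 5.49% and lowered 3.79% in AAI, and AAI lowered 21.8% in siB cells. TNFRSF10B (chromosome 8, 23020133 to 23069031, minus strand), the TRAIL receptor DR5, was at 134, 124 and 116 CPM in SCR DMSO, 214, 220.5 and 203 in siB DMSO, 122, 119 and 147 in SCR AAI and 217, 203 and 243 in siB AAI. Every siB library lay above every SCR library, with or without AAI, while the AAI and DMSO groups overlapped. The difference of siB from SCR cells was 0.77 (SE 0.16, adjusted p = 0.0112) in AAI, where it passed, and 0.76 (SE 0.13, adjusted p = 0.718) in DMSO, where it did not. The call in AAI ended without siB AAI replicate 3. The AAI values were 0.04 (SE 0.20, adjusted p = 0.913) in SCR cells and 0.05 (SE 0.10, adjusted p = 0.689) in siB cells. RHOBTB2, which overlaps TNFRSF10B on the other strand, was itself at 24.1 to 28.1 CPM in SCR DMSO, 30.01 to 33.95 in siB DMSO, 22.3 to 24.7 in SCR AAI and 42.6 to 52.1 in siB AAI. Its share in the TNFRSF10B counts was not tested, since whether the counting used strand is not given in the sources used here.

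**Figure D2:**
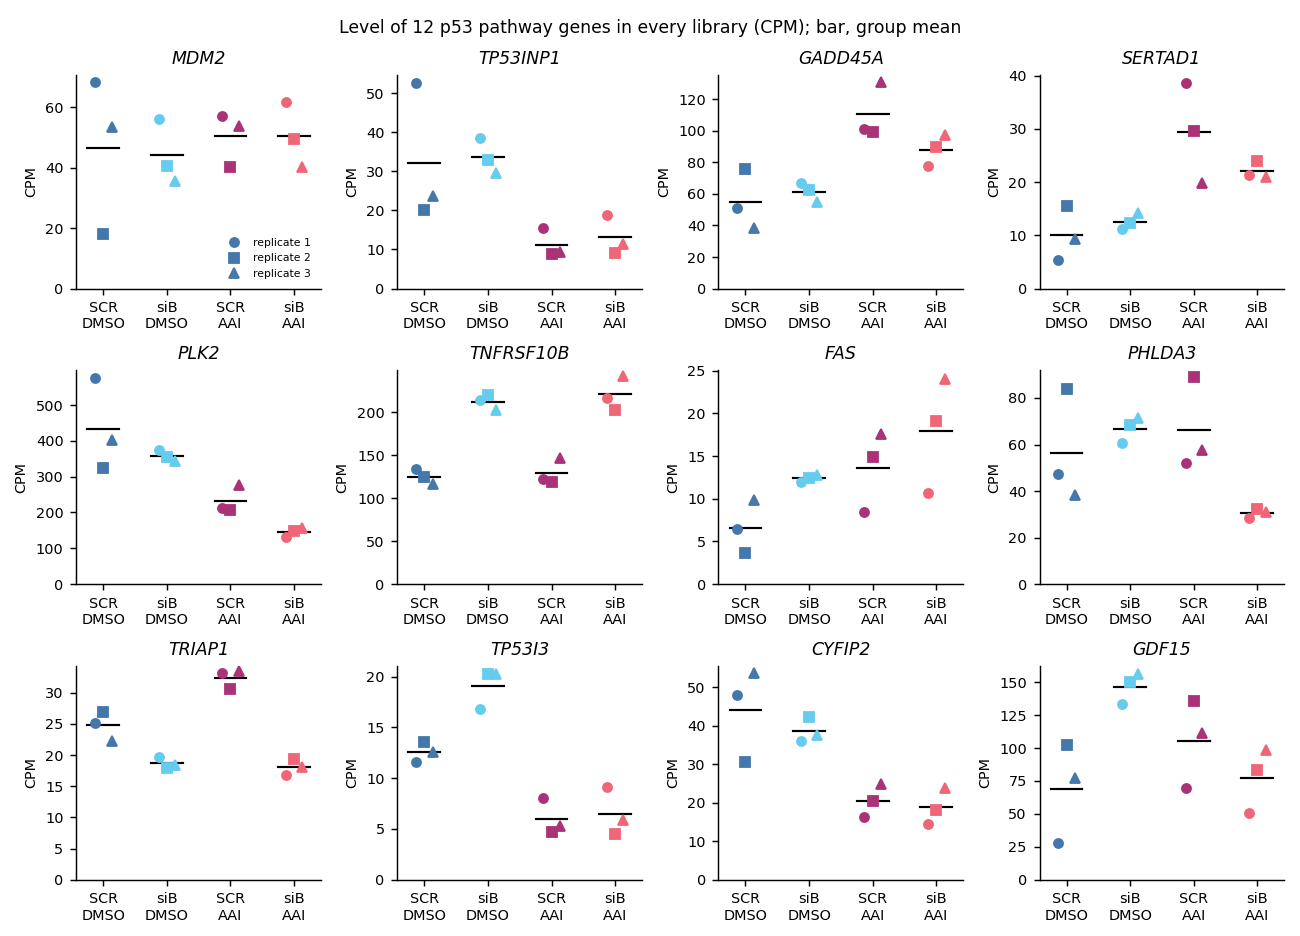
CPM (y axis, from 0) of 12 p53 pathway genes in each of the 12 libraries, by group (x axis), with symbols for replicate numbers and bars for group means. TNFRSF10B was above 200 CPM in all 6 siB libraries and below 150 in all 6 SCR libraries, and TRIAP1 was below 20 and above 22, respectively.

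FAS (chromosome 10, 88953813 to 89029605, plus strand), the receptor of FAS ligand, was at 6.47, 3.62 and 9.82 CPM in SCR DMSO, 12.01, 12.5 and 12.8 in siB DMSO, 8.45, 14.9 and 17.5 in SCR AAI and 10.7, 19.1 and 24.1 in siB AAI. The siB DMSO libraries were all above the SCR DMSO ones, and the other groups overlapped. None of its differences passed, with 0.97 (SE 0.40, adjusted p = 0.165) for AAI in SCR cells, 0.43 (SE 0.25, adjusted p = 0.176) in siB cells and 0.90 (SE 0.32, adjusted p near 1) for the knockdown in DMSO. For the knockdown the difference was 0.58 without SCR DMSO replicate 2. STAMBPL1, which overlaps FAS on the same strand, was at 3.41 to 6.25 CPM in SCR DMSO and 5.80 to 10.6 in SCR AAI. ACTA2, on the other strand, was at 0.970 to 2.62 and 1.36 to 2.71 CPM there. Their share in the FAS counts was not tested. EDA2R, the receptor of ectodysplasin A2, and SPATA18, a mitochondrial quality control protein, were not tested. EDA2R was at or under 0.185 CPM and SPATA18 at or under 0.221 CPM in every library, near the limit of 3 reads that a count of 0 allows (0.0701 to 0.189 CPM by library, counting error only).

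TP53I3 (chromosome 2, 24077433 to 24085861, minus strand), the quinone oxidoreductase PIG3 that produces reactive oxygen species, was at 11.6, 13.5 and 12.6 CPM in SCR DMSO, 16.8, 20.2 and 20.3 in siB DMSO, 8.06, 4.67 and 5.25 in SCR AAI and 9.09, 4.52 and 5.84 in siB AAI. Both AAI groups lay below both DMSO groups, and siB DMSO lay above SCR DMSO. With AAI it fell by 1.47 on the log2 scale in siB cells (SE 0.22, adjusted p = 0.000561), the largest fall of the 31 genes there, while in SCR cells the change was -0.99 (SE 0.27, adjusted p = 0.0536), and -0.99 (SE 0.27, adjusted p = 0.0384) with the block. FAM228B, which overlaps it, was at 3.50 to 11.6 CPM in SCR DMSO, 5.28 to 7.27 in siB DMSO, 11.5 to 16.3 in SCR AAI and 17.1 to 23.9 in siB AAI, the opposite direction.

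PHLDA3 (chromosome 1, 201464278 to 201469237, minus strand), a pleckstrin homology protein that competes with AKT for membrane lipids, was at 47.3, 83.8 and 38.5 CPM in SCR DMSO, 60.6, 68.5 and 71.2 in siB DMSO, 51.96, 88.95 and 57.7 in SCR AAI and 28.3, 32.2 and 31.1 in siB AAI. The siB AAI libraries were all below every other library, and the other 3 groups overlapped. It fell with AAI in siB cells, at -1.10 (SE 0.12, adjusted p = 7.92e-05), and in AAI it was lower in siB than in SCR cells, at -1.05 (SE 0.20, adjusted p = 0.0092), a call that ended without SCR AAI replicate 3 (-1.13). In SCR cells AAI gave 0.26 (SE 0.34, adjusted p = 0.658).

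TRIAP1 (chromosome 12, 120443964 to 120446384, minus strand), a small mitochondrial protein that inhibits apoptosis, was at 25.1, 26.9 and 22.3 CPM in SCR DMSO, 19.6, 17.9 and 18.5 in siB DMSO, 33.2, 30.5 and 33.5 in SCR AAI and 16.7, 19.3 and 18.1 in siB AAI. All 6 siB libraries lay below all 6 SCR libraries. With the knockdown it fell in AAI, at -0.81 (SE 0.17, adjusted p = 0.0129), and differed by -0.39 (SE 0.17, adjusted p near 1) in DMSO. Without SCR AAI replicate 3 or without siB AAI replicate 3 the call in AAI ended, at -0.79 and -0.82.

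CYFIP2 (chromosome 5, 157266079 to 157395595, plus strand), a subunit of the WAVE complex that controls actin, was at 47.9, 30.7 and 53.6 CPM in SCR DMSO, 35.99, 42.1 and 37.6 in siB DMSO, 16.3, 20.5 and 24.8 in SCR AAI and 14.5, 18.1 and 23.8 in siB AAI. Both AAI groups lay below both DMSO groups. The change was -1.02 (SE 0.18, adjusted p = 0.00125) in siB cells and -1.05 (SE 0.29, adjusted p = 0.0566) in SCR cells, where it passed with the block at -1.05 (SE 0.25, adjusted p = 0.0225). RPS27L, a ribosomal protein like RPS27 whose reads could be shared with that near copy, was at 28.1, 41.4 and 30.005 CPM in SCR DMSO, 30.1, 30.3 and 27.8 in siB DMSO, 19.1, 17.6 and 16.1 in SCR AAI and 21.8, 24.6 and 20.04 in siB AAI. The AAI and DMSO groups did not overlap in either cell state. It fell in siB cells, at -0.39 (SE 0.13, adjusted p = 0.0316), and in SCR cells gave -0.86 (SE 0.25, adjusted p = 0.0638), or -0.86 (SE 0.23, adjusted p = 0.0362) with the block. In siB cells the call ended without siB DMSO replicate 2 (-0.37), siB DMSO replicate 3 (-0.43) or siB AAI replicate 3 (-0.33).

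DRAM1, a lysosomal membrane protein of p53-dependent autophagy, was at 64.7, 35.6 and 45.2 CPM in SCR DMSO, 62.7, 49.96 and 51.1 in siB DMSO, 54.7, 30.996 and 45.5 in SCR AAI and 40.3, 32.5 and 39.5 in siB AAI. In siB cells the AAI libraries lay below the DMSO libraries, and the change was -0.53 (SE 0.14, adjusted p = 0.0105). TP53I13 was at 52.03, 72.8 and 47.3 CPM in SCR DMSO, 63.2, 75.5 and 74.04 in siB DMSO, 70.8, 66.5 and 41.2 in SCR AAI and 53.96, 44.4 and 43.9 in siB AAI. It fell in siB cells, at -0.57 (SE 0.13, adjusted p = 0.00483), and was at 0.04 (SE 0.29, adjusted p = 0.948) in SCR cells, whose groups overlapped. AEN, an exonuclease that enhances apoptosis, was at 35.5 ± 13.6 CPM in SCR DMSO, 38.9 ± 3.59 in siB DMSO, 61.7 ± 18.5 in SCR AAI and 46.1 ± 9.19 in siB AAI (SD, n = 3), and passed in SCR cells under the block at 0.81 (SE 0.19, adjusted p = 0.0245). TP53I11 had group means of 1.24 to 1.84 CPM and passed in none.

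The genes of DNA synthesis and repair did not pass in any comparison. RRM2B was at 20.8 ± 19.4 CPM in SCR DMSO, 17.6 ± 5.23 in siB DMSO, 21.5 ± 8.67 in SCR AAI and 21.03 ± 5.87 in siB AAI (SD, n = 3), and its SE for AAI in SCR cells, 0.71, was the widest of the 31 genes. That difference turned from 0.46 to -0.35 without SCR DMSO replicate 2. POLH, the polymerase that copies past ultraviolet lesions, was at 27.9 ± 3.19 CPM in SCR DMSO, 26.8 ± 1.21 in siB DMSO, 24.4 ± 3.36 in SCR AAI and 27.3 ± 5.93 in siB AAI (SD, n = 3), with pairwise differences between -0.19 and 0.15.

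Of the metabolic genes, SESN1 and CMBL fell with AAI in siB cells, where 21.8% of all genes were lowered. SESN1 (chromosome 6, 108984309 to 109094846, minus strand), a sestrin that restrains mTORC1, was at 9.61, 4.42 and 5.70 CPM in SCR DMSO, 9.36, 7.21 and 8.59 in siB DMSO, 8.61, 5.17 and 6.11 in SCR AAI and 4.42, 6.05 and 5.09 in siB AAI. The change was -0.60 (SE 0.18, adjusted p = 0.0175) in siB cells and 0.04 (SE 0.33, adjusted p = 0.948) in SCR cells, where the sign turned to -0.13 with median-ratio scaling. In siB cells all AAI libraries were below the DMSO ones, and the call ended without siB DMSO replicate 3 (-0.59) or without siB AAI replicate 3 (-0.60). CMBL, a cytosolic hydrolase, was at 11.4, 14.2 and 12.5 CPM in SCR DMSO, 12.1, 12.4 and 11.3 in siB DMSO, 9.88, 9.24 and 11.7 in SCR AAI and 8.39, 8.49 and 7.77 in siB AAI. In siB cells the AAI libraries were below the DMSO ones, at -0.49 (SE 0.15, adjusted p = 0.0195), a call that ended without siB DMSO replicate 2 (-0.46), siB DMSO replicate 3 (-0.52) or siB AAI replicate 3 (-0.45).

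TIGAR, a phosphatase that lowers fructose-2,6-bisphosphate and spares NADPH, was at 14.6 ± 2.49 CPM in SCR DMSO, 19.4 ± 1.56 in siB DMSO, 21.9 ± 2.09 in SCR AAI and 23.2 ± 1.02 in siB AAI (SD, n = 3). SCR DMSO lay below the 3 other groups with no overlap, yet the changes of 0.56 (SE 0.25, adjusted p = 0.195) for AAI in SCR cells and 0.39 (SE 0.20, adjusted p near 1) for the knockdown in DMSO did not pass. FDXR, the mitochondrial ferredoxin reductase, was at 14.96 ± 4.69 CPM in SCR DMSO, 20.3 ± 2.42 in siB DMSO, 23.7 ± 5.78 in SCR AAI and 23.1 ± 3.93 in siB AAI (SD, n = 3), and passed for AAI in SCR cells only without SCR DMSO replicate 2, at 0.87 (SE 0.27, adjusted p = 0.0371). ACER2, a Golgi ceramidase, had group means of 1.98 to 2.71 CPM and passed in none.

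GDF15 (chromosome 19, 18374731 to 18389176, plus strand), a secreted stress cytokine of the TGF-β family, was at 27.5, 102 and 77.03 CPM in SCR DMSO, 133, 149.8 and 156 in siB DMSO, 69.8, 136 and 111 in SCR AAI and 50.9, 83.5 and 98.2 in siB AAI. It was highest in siB DMSO, above every SCR DMSO library and every siB AAI library. With AAI it fell by 0.96 on the log2 scale in siB cells (SE 0.21, adjusted p = 0.00417), whereas in SCR cells the groups overlapped and the change was 0.75 (SE 0.48, adjusted p = 0.365). Without SCR DMSO replicate 1 the SCR value was 0.20 and without replicate 2 it was 1.12.

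In DMSO alone the knockdown changed no p53 gene past the threshold, and 0 of the 13606 genes tested passed in either direction (0% and 0%). With voom on recovered reads the counts were 0 as well. Before correction, TNFRSF10B, FAS, TP53I3 and GDF15 had a p under 0.05 and were higher, and 0 were lower, against 3.52% and 1.21% of all genes. Groups did not overlap for 6 genes that were higher in siB (PLK3, FAS, TNFRSF10B, TP53I3, TIGAR and GDF15) and 1 that was lower (TRIAP1), against 8.28% and 3.64% of all genes. The median over the 31 was 0.20, with 20 above 0, beside 0.06 over all genes. Without SCR DMSO replicate 2 these became 0.01, 16 and -0.04. With every library kept, 60.4% of all genes were above 0. GDF15 stood furthest from 0, at 1.26 (SE 0.46, adjusted p near 1), or 0.71 without SCR DMSO replicate 1.

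Given AAI, the knockdown raised 1 gene, TNFRSF10B, and lowered 3, PLK2, PHLDA3 and TRIAP1, against 5.49% of all genes raised and 3.79% lowered. Of these PHLDA3 passed 2-fold, beside 3.04% of all genes upward and 0.629% downward. The numbers were taken as pairs here too, and with the block 1 was raised and 7 lowered (AEN, CCNG1, GDF15 and MDM4 in addition), against 15.2% and 13.8% of all genes. GDF15 then had -0.44 (SE 0.15, adjusted p = 0.0139) and CCNG1 -0.66 (SE 0.16, adjusted p = 0.000235). The p-values of this block fit equal those of a normal distribution, so each gene's own spread had no weight in them. The calls added by the block rest on such p-values. Without SCR AAI replicate 3 the lowered count was 0, where 0.415% of all genes were lowered, and without SCR AAI replicate 1 it was 6, where 5.34% were.

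The knockdown comparisons in DMSO and in AAI share no library, so their values can be set side by side. TNFRSF10B, PLK3 and TRIAP1 moved with no overlap between groups and in the same direction in both, 3 of 31 genes (9.68%) beside 3.15% of all genes tested in both. Averaged over both treatments in 1 fit of the 12 libraries, an estimate chosen after the data were seen, the knockdown raised TNFRSF10B by 0.77 (SE 0.10, adjusted p = 0.00276) and lowered TRIAP1, at -0.60 (SE 0.11, adjusted p = 0.012). No other of the 31 passed, where 2.89% of all genes were raised and 0.914% lowered. The knockdown effect on TNFRSF10B differed between AAI and DMSO by 0.01 (SE 0.19, adjusted p = 0.996). PHLDA3 and GDF15 had values of opposite sign in the 2 treatments.

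**Figure D3:**
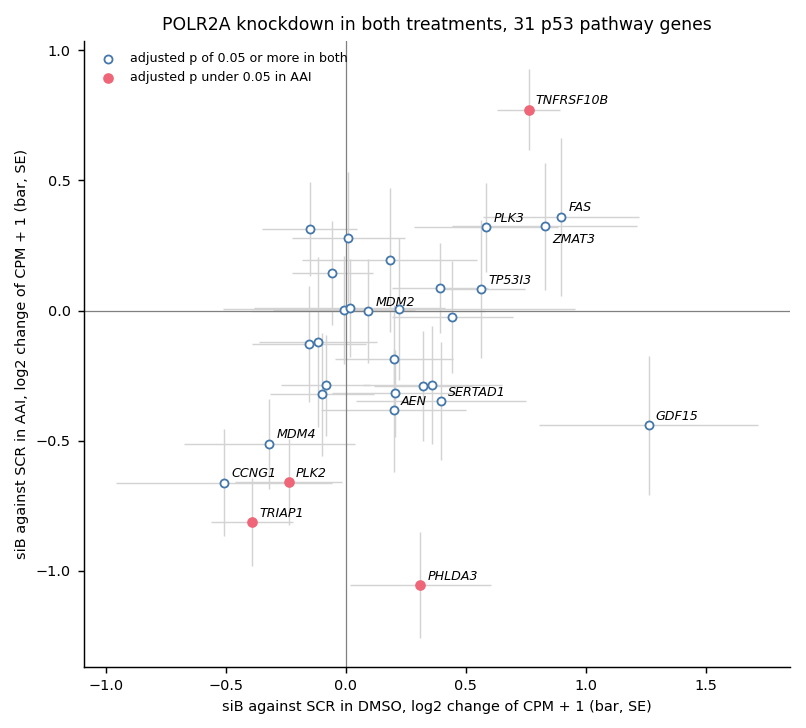
Log2 change of CPM + 1 for siB against SCR in DMSO (x axis) and in AAI (y axis) for the 31 tested p53 pathway genes, with bars for SE; filled points have an adjusted p under 0.05 in AAI and none has one in DMSO. TNFRSF10B lies at 0.76 and 0.77, and GDF15 at 1.26 and -0.44.

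Whether the AAI response itself differed between siB and SCR cells was tested as an interaction over all 12 libraries. No gene of the 31 passed in either direction, against 1.46% of all genes higher and 0.157% lower in siB cells. Before correction, 0 were higher and 2 lower at a p under 0.05, against 6.75% and 6.51% of all genes, so the lower count was at the background. The 2 were GDF15, at -1.70 (SE 0.59, adjusted p = 0.211), and PHLDA3, at -1.37 (SE 0.38, adjusted p = 0.11). Both passed without SCR DMSO replicate 2, at -2.08 (SE 0.52, adjusted p = 0.034) and -1.69 (SE 0.28, adjusted p = 0.00936), against 3.25% and 3.34% of all genes. Both also passed with the number as a block over all 12 libraries, against 1.87% and 0.666% of all genes, though the numbers were not taken as pairs for every group. Over the 31 genes the median was -0.27 with 24 below 0, beside -0.06 over all genes, of which 8619 of 15325 were below 0.

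Gene length was set against these changes, with short genes under 30 kb, medium ones from 30 to 100 kb and long ones over 100 kb of span in GENCODE release 44. Among the tested genes 14 were short, 12 medium and 5 long (FBXW7, ZMAT3, DRAM1, CYFIP2 and SESN1). With AAI in SCR cells the median was 0.47 for the short genes and -0.01 for the long ones, beside 0.21 and -0.09 for all short and long genes. Of the short p53 genes 10 were higher and 4 lower, and of the long ones 2 and 3. Of all short genes 63.3% were higher, and of all long genes 44.1%. With median-ratio scaling, which moved the median of all genes from 0.18 to -0.01, all 5 long genes were lower, where 32.1% of all long genes were higher.

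In siB cells the short p53 genes had a median with AAI of -0.26, beside 0.05 for all short genes. Of the 14, 3 were raised and 7 lowered, against 29.2% and 25% of all short genes. The medium genes had 0.21 beside 0.18. All 5 long genes were lower, 3 of them past the threshold (DRAM1, CYFIP2 and SESN1), with a median of -0.53 beside -0.04 for all long genes. Of all long genes 23.1% were raised and 26.2% lowered, and 48.2% had a change above 0. These medians depend on the cut. Split at 50 kb, the 22 short genes had 0.03 and the 9 long ones -0.02, beside 0.07 and 0.08 for all genes. Of those 9, 3 were higher and 6 lower. With RefSeq spans the 3 long genes had -0.60 beside -0.06, and the 16 short ones -0.22 beside 0.04.

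For the knockdown in AAI, 11 of the 14 short genes were lower in siB cells, with a median of -0.33 beside -0.07 for all short genes. The long ones had -0.13 beside 0.13. Of all short genes 42.6% were higher, and of all long genes 65.6%. For the knockdown in DMSO, 10 of the 14 short genes were higher, with a median of 0.26 beside 0.08, and 4 of the 5 long ones, with 0.20 beside 0.02. Here 63.2% of all short genes and 53.2% of all long genes were higher. The value for the long genes depends on the annotation, since RefSeq gives DRAM1 46.03 kb in place of 135 and ZMAT3 55.3 in place of 112. This leaves 3 long genes, 2 of them higher beside 52.1% of all long genes, with a median of 0.018 beside 0.013.

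**Figure D4:**
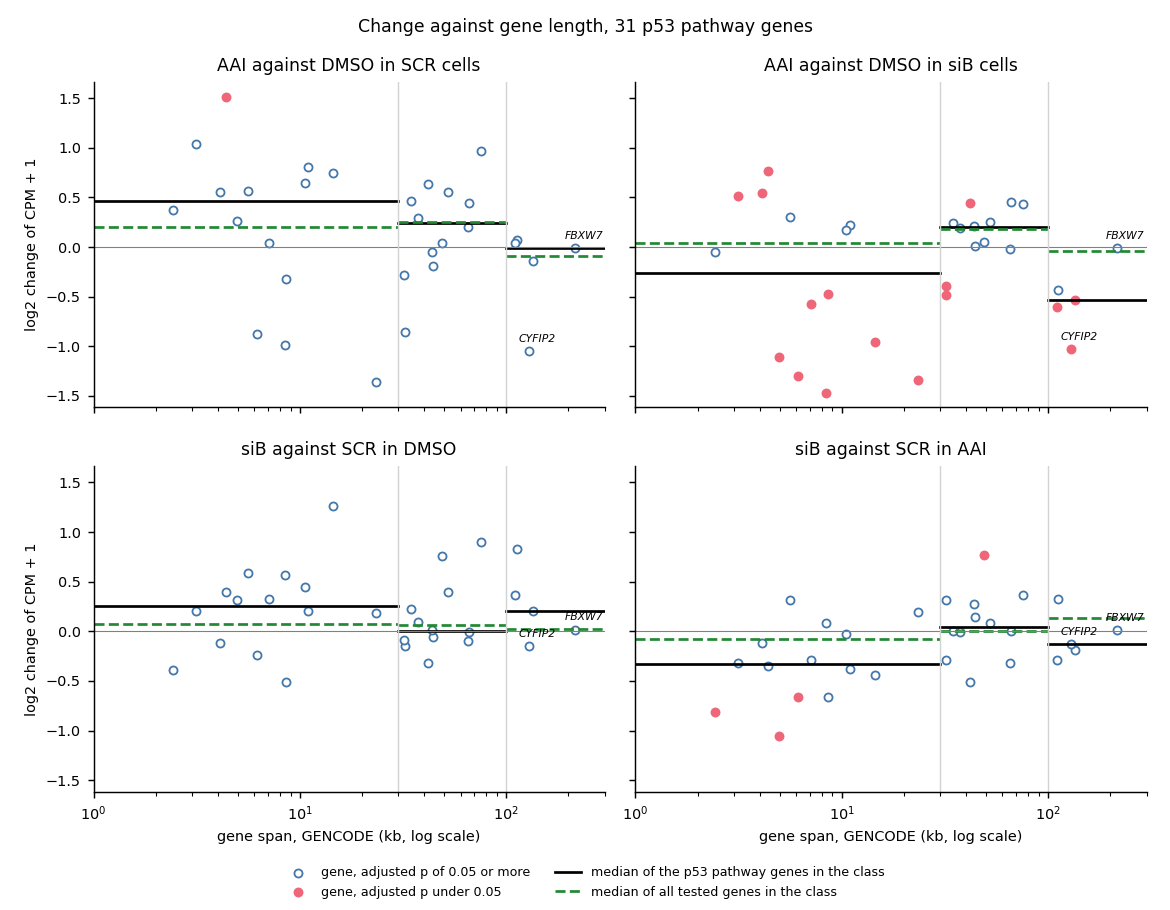
Log2 change of CPM + 1 (y axis) against gene span in kb (x axis, log scale) for the 31 tested p53 pathway genes in 4 comparisons, with filled points for an adjusted p under 0.05. Black lines are medians of these genes and dashed green lines medians of all genes in the short, medium and long classes; in siB cells with AAI the black lines lie at -0.26, 0.21 and -0.53.

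Library by library, the average log2(CPM + 1) of the 14 short genes was subtracted from that of the 5 long ones, which gave -0.12, -1.41 and -0.69 in SCR DMSO and -1.19, -1.40 and -0.93 in SCR AAI. It was -0.46, -0.88 and -0.83 in siB DMSO and -0.95, -0.86 and -0.90 in siB AAI. The spread inside SCR DMSO covered the other 3 groups, and the vehicle library SCR DMSO replicate 2 was as low as the lowest AAI library. Over all long and short genes that library was again the lowest of the 12.

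**Figure D5:**
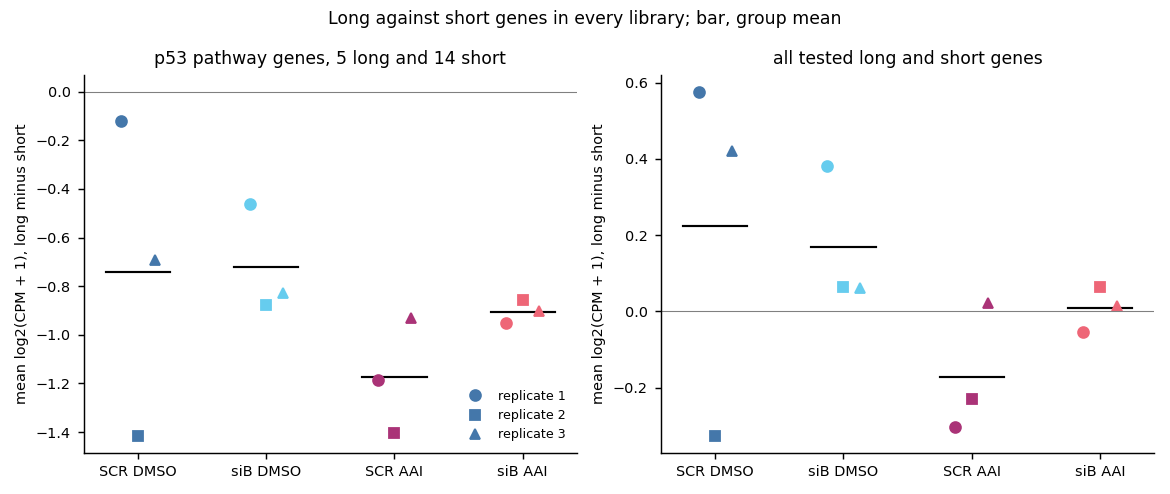
Difference of average log2(CPM + 1), long less short genes (y axis), in each library by group (x axis), for the p53 pathway genes (left) and for all tested genes (right), with bars for group means; the y axes differ. SCR DMSO replicate 2 lies at -1.41 on the left and -0.33 on the right, the lowest of the 12 libraries in both.

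A second list of 62 genes, regulators and other direct targets in the pathway, was read by the same tests. With AAI it had 4 genes raised and 0 lowered of 57 tested in SCR cells, and 18 raised and 14 lowered of 59 in siB cells. Over all genes the shares raised and lowered were 8.98% and 3.36% in SCR cells and 30.4% and 21.8% in siB cells, so the siB counts were at the background. The knockdown raised 2 and lowered 4 of 58 in AAI, where 5.49% and 3.79% of all genes passed, and 0 passed in DMSO.

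CDKN1A, the cyclin-dependent kinase inhibitor p21 and the best known arrest target, was at 182, 169 and 191 CPM in SCR DMSO, 257, 304 and 303 in siB DMSO, 299, 305 and 263 in SCR AAI and 304, 259.7 and 299 in siB AAI. SCR DMSO lay below the 3 other groups, which overlapped. The change with AAI was 0.67 (SE 0.19, adjusted p = 0.0535) in SCR cells, 0.67 (SE 0.19, adjusted p = 0.0413) with the block, 0.63 (SE 0.20, adjusted p = 0.0451) without SCR DMSO replicate 2, and 0.00 (SE 0.11, adjusted p = 0.991) in siB cells. The knockdown in DMSO gave 0.67 (SE 0.14, adjusted p = 0.935).

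In SCR cells AAI raised PIDD1, a scaffold of caspase-2, by 1.40 (SE 0.26, adjusted p = 0.0109), PMAIP1, the BH3-only protein NOXA, by 1.33 (SE 0.26, adjusted p = 0.0136), and BLOC1S2 by 0.87 (SE 0.23, adjusted p = 0.0451). In siB cells it raised TNFRSF10D, a decoy TRAIL receptor, by 1.79 (SE 0.14, adjusted p = 9.93e-06), XAF1 by 1.25 (SE 0.21, adjusted p = 0.000907) and TRIM22 by 1.09 (SE 0.18, adjusted p = 0.00088). TRIM22 met the filter there only through its siB AAI libraries, and in siB DMSO it was at 0.0902 to 0.256 CPM, near the limit of 3 reads. The genes that AAI lowered in siB cells included KAT5, the acetyltransferase TIP60, at -1.38 (SE 0.19, adjusted p = 0.000269), BBC3, the BH3-only protein PUMA, at -1.27 (SE 0.23, adjusted p = 0.00153), and ORAI3, a calcium channel subunit, at -1.02 (SE 0.20, adjusted p = 0.00209). In AAI the knockdown raised TNFRSF10D by 1.51 (SE 0.25, adjusted p = 0.00436) and XAF1 by 1.04 (SE 0.21, adjusted p = 0.0108), while KAT5 at -1.49 (SE 0.25, adjusted p = 0.00512), RRAD at -1.13 (SE 0.20, adjusted p = 0.00545) and NINJ1 at -0.77 (SE 0.18, adjusted p = 0.022) were among those lowered. TNFRSF10D thus stood at 312, 215 and 258 CPM in siB AAI, above every other library (43.2 to 140.2 CPM).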

How the data were processed

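Bulk RNA-seq was measured in 12 libraries of HK-2 cells, 3 in each of 4 groups. The authors deposited log10(CPM + 1) values for each gene for every library, from paired-end reads aligned to hg38 and counted per gene on the BioJupies platform; the aligner and strand setting are not given in the sources used here. The log10 values were turned back into CPM, and whole reads were recovered from the steps of CPM for at least 99.99% of values in each library (within 0.01 reads). Depth was 15844015 to 42805294 reads, and 3 reads, the limit that a count of 0 allows, were 0.0701 to 0.189 CPM.

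Log2(CPM + 1) was tested with limma 3.58.1 in R 4.3.3 (moderated variances with a mean trend), each pairwise comparison in a fit of its own 6 libraries and the interaction over all 12, with genes of at least 1 CPM in 3 libraries of the fit and Benjamini-Hochberg adjustment. Replicate numbers were taken to pair libraries where the correlation of deviations from group means over 14465 genes was over 0.1 for every number: SCR DMSO with SCR AAI (0.43, 0.49 and 0.35) and SCR AAI with siB AAI (0.64, 0.33 and 0.30). No label gives such pairs. Between SCR DMSO and siB AAI, each taken as paired with SCR AAI, the correlations were 0.41, 0.01 and -0.03. Alternatives were another pseudocount, filter, scaling (median-ratio), trend or fit, CPM without the transcript AC010970.2, a replicate block, voom and each library left out. Spans were taken from GENCODE 44 on hg38 by symbol (91.9% of genes), and figures were drawn with matplotlib 3.10.9 in Python 3.11.15.

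The p53 pathway genes and the second list were chosen with earlier results of these data known. Values in every library are given for genes that passed in any comparison and for MDM2, FAS and GDF15. Of the second list, CDKN1A and up to 3 genes with the largest change each way among those that passed are named for each comparison. The values of 1 gene of that list that would be named by the same rule are not reported here.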

Additional observations from a re-analysis of the deposited data

Results flagged for a closer look

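TRIM22, an interferon- and p53-responsive ubiquitin ligase of the second list, was picked out because its response to AAI differed between the cell states by 1.28 on the log2 scale (SE 0.23, adjusted p = 0.019 in limma over all 12 libraries). It was at 1.06, 0.537 and 0.772 CPM in SCR DMSO and at 0.386, 0.680 and 0.626 in SCR AAI, 2 groups that overlapped. In siB cells it was at 0.256, 0.0902 and 0.167 CPM in DMSO and at 1.96, 1.34 and 1.23 in AAI, with no overlap. The siB DMSO replicate 2 value is under the limit of 3 reads in that library, 0.135 CPM, and that of replicate 3 is at its limit of 0.167. The call ended with voom on the recovered reads, where the difference was larger, at 3.39 (adjusted p = 0.17). It also ended without SCR DMSO replicate 1 (1.17) or replicate 3 (1.28), and without SCR AAI replicate 3 (1.31). The same held without siB DMSO replicate 1 (1.33), replicate 2 (1.23) or replicate 3 (1.28). With these libraries left out the adjusted p ran from 0.0505 to 0.0706. TRIM22 was left out by the filter in the comparison of AAI with DMSO in SCR cells and in that of the knockdown in DMSO. Where it was tested, the interaction included, it would not have met the filter without the siB AAI libraries, the group where it was high. Groups of 3 libraries were not searched for single outlying values.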

How the results depend on the processing

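In SCR cells given AAI, raised p53 pathway genes (1) became 0 without a filter, with a mean CPM of at least 5, with median-ratio scaling and with voom. The shares of all genes there were 6.19%, 4.35%, 7.50% and 8.27%. Raised became 2 without AC010970.2 and 3 with all 4 groups in the fit, against 9.92% and 18.1% of all genes. Lowered genes (0) became 1 without a filter, without AC010970.2 or without the trend, against 1.39%, 3.23% and 3.54% of all genes. They became 4 with median-ratio scaling and 5 with all 4 groups, against 5.69% and 8.60%. With each library left out, raised ran from 0 to 4 and lowered from 0 to 5, against 5.40% to 13.5% and 0.829% to 8.70% of all genes. In siB cells raised (4) became 2 without a filter or with median-ratio scaling, against 23.7% and 26.7% of all genes. It became 0 with all 4 groups or a 2-fold limit, against 20.7% and 13.9%. With a library left out it ran from 2 to 4, against 23.6% to 34.8%. Lowered (12) became 6 with all 4 groups and 5 at 2-fold, against 13.7% and 5.79%. With a library left out it ran from 8 to 12, against 16.8% to 22.7%. For the knockdown in AAI, raised (1) became 0 at 2-fold, against 3.04% of all genes, and lowered (3) became 1, against 0.629%. Lowered became 2 without a filter and with all 4 groups, against 1.33% and 2.46% of all genes. It became 4 with median-ratio scaling and without AC010970.2, against 4.33% and 4.70%. With a library left out raised ran from 0 to 1, against 1.01% to 8.74%. Lowered then ran from 0 to 6, against 0.415% to 5.34%. In DMSO both counts stayed 0 in every other setting tried. They were 1 and 1 for the estimate averaged over DMSO and AAI, against 2.89% and 0.914% of all genes. That estimate was chosen after seeing the data. Genes with a lower response in siB cells (0) ran from 0 to 2 with a library left out, against 0.0196% to 3.34% of all genes. The cause of these moves was not tested. For 47 single-gene values chosen from the text, 719 alternatives were computed, of which 604 kept direction and side of the threshold, 61 no longer passed, 47 newly passed and 7 turned. The 7 were values for AAI in SCR cells that did not pass. With a library left out, MDM2 ran from -0.27 (without SCR DMSO replicate 2) to 0.66, CCNG1 from -0.84 to 0.070 (without SCR DMSO replicate 1), RRM2B from -0.35 (without SCR DMSO replicate 2) to 1.195, and SESN1 from -0.17 to 0.32, with turned values without SCR DMSO replicate 2, SCR DMSO replicate 3 or SCR AAI replicate 1. SESN1 was also at -0.13 with median-ratio scaling. Values outside the 47 also turned without SCR DMSO replicate 2. For the knockdown in DMSO they included MDM2 (0.09 to -0.47), RRM2B (0.22 to -0.59), TP53INP1 (0.18 to -0.08) and RPS27L (-0.15 to 0.02). For the interaction they included MDM2 (-0.10 to 0.47), CCNG1 (-0.15 to 0.37) and RRM2B (-0.22 to 0.60). None of these was called.

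With the replicate number as a block, raised and lowered counts were 3 and 5 in SCR cells, against 14.7% and 6.40% of all genes. They were 5 and 13 in siB cells, against 34.0% and 23.6%. For the knockdown in AAI they were 1 and 7, against 15.2% and 13.8%, with p-values that gave each gene's own spread no weight. They were 0 and 0 in DMSO, against 0% and 0%, and 0 and 2 for the interaction, against 1.87% and 0.666%. Correlations of deviations were 0.22, 0.03 and 0.21 between siB DMSO and siB AAI, and 0.74, 0.61 and -0.20 between SCR DMSO and siB DMSO, so these numbers were not taken as pairs. The 3 libraries a group and the spread of SCR DMSO limit precision in every comparison with that group, and EDA2R and SPATA18 were too low to test at this depth.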
